A study of Caenorhabditis elegans with 12 samples.

Results

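Gene expression of *hsf-1*(*sy441*) mutants was set against that of wild-type N2 animals when both had been heat shocked. Of the 12 libraries of the series, 6 belong to this comparison. The 3 *hsf-1*(*sy441*) heat shock libraries come from strain TTV450, which carries the *sy441* allele of *hsf-1* and was outcrossed to the wild type, and the 3 N2 heat shock libraries come from the Bristol wild type with no engineered allele. All 6 were made from whole day 1 adults that were synchronized, grown at 20 °C on *E. coli* OP50 and exposed to 35 °C for 30 min, after which they had 1 h of recovery at 20 °C. The other 6 libraries, 3 of each genotype kept at 20 °C without heat shock, were used only to show which differences were present without the treatment. The question behind the comparison is which transcripts depend on intact HSF-1 in animals that have just been through a heat shock.

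HSF-1 is the heat shock transcription factor of *C. elegans*. Heat releases it from chaperone complexes, it forms trimers, binds heat shock elements in promoters and raises transcription of genes for small heat shock proteins, HSP70, HSP90 and their co-chaperones, and it also acts in unstressed animals in development, proteostasis and lifespan. The *sy441* allele is considered to remove the transactivation domain while leaving the DNA-binding part of the protein, so that the strain is not a null. Counts per gene cannot show the allele itself, and the level of *hsf-1* RNA therefore does not check the labels: *hsf-1* (chromosome I, 11953507 to 11963085, coordinates on WBcel235 throughout) had 76.6, 129 and 101 CPM in the *hsf-1*(*sy441*) heat shock libraries, against 95.8, 114 and 126.2 CPM in N2 heat shock libraries. These ranges overlapped, and the log2 fold change was -0.13 ± 0.29 (SE), with an adjusted p of 0.884. CPM is the count of a gene scaled to a common library size, with the library sizes adjusted by TMM.

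The heat shock libraries held 68188334, 76816739 and 73987816 counts in *hsf-1*(*sy441*) animals, against 78435253, 85982301 and 109248499 in N2 animals. The first principal component of the 6 libraries took 44.4% of their variance and set the genotypes apart, while the second took 24.3%, with the library numbered 1 of each genotype at the positive end of it. Ribosomal RNA genes took 7.97% of the counts in *hsf-1*(*sy441*) replicate 1 and 1.09 to 4.58% in the other 5 libraries. The summed level of mitochondrially encoded genes was 27590 CPM in N2 replicate 1, against 9507 and 8309 CPM in the other N2 libraries. Because these libraries stood apart, calls are also given without them. The labels call the replicates biological but do not say that they were separate cultures, so the p-values reflect only the variation among these libraries, which may be technical.

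Of 17946 genes tested with edgeR's quasi-likelihood test, 417 were higher in *hsf-1*(*sy441*) than in N2 animals after heat shock and 68 were lower, at a Benjamini-Hochberg adjusted p under 0.05. The calls made up 2.7% of all tested genes, 2.32% being higher and 0.379% lower, so that 86% of the changed genes were higher in the mutant. Over all tested genes, the log2 fold change had a median of 0.042, close to 0. At an unadjusted p under 0.05, 2364 genes (13.2%) were higher and 1012 (5.64%) lower. The *hsf-1*(*sy441*) and N2 libraries did not overlap in any of the 485 called genes, and did not overlap in 29.2% of all tested genes. Genes called higher had a median over genes of the mean level of 7.81 CPM and those called lower 19 CPM, against 5.04 CPM over all tested genes.

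Leaving out a single library cut the number of calls by more than 1.5 times, except for the genes called lower without *hsf-1*(*sy441*) replicate 1, as the plot of calls with libraries left out shows. Without a single *hsf-1*(*sy441*) library 154 to 211 genes were higher, and without N2 replicates 1, 2 and 3 in turn, 114, 181 and 107 were higher. The genes called lower numbered 55, 32 and 23 without each mutant library and 31, 28 and 33 without each N2 library. Of the 417 higher and 68 lower genes, 75 and 18 were called in every one of these 6 fits, while 141 and 18 were called in none of them. Without both libraries numbered 1, 58 genes were higher and 20 lower. All 417 and all 68 genes still had the same sign in that fit. Among the 88 called genes named below, 42 were called whichever single library was left out, and 29 of these were also called without both libraries numbered 1. The other 13 were not, at adjusted p between 0.0529 and 0.112: *hsp-43*, *alg-3*, *clec-221*, *dct-17*, *fipr-22*, *gst-24* and *ifd-2* among the higher genes, and *ahsa-1*, *fbxa-170*, *gst-1*, *dhs-12*, *R09H10.7* and *Y38F1A.4* among the lower. Of the remaining 46, only *hsp-16.2*, *hsp-16.41* and *pals-39* were called in that fit.

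**Figure D1:**
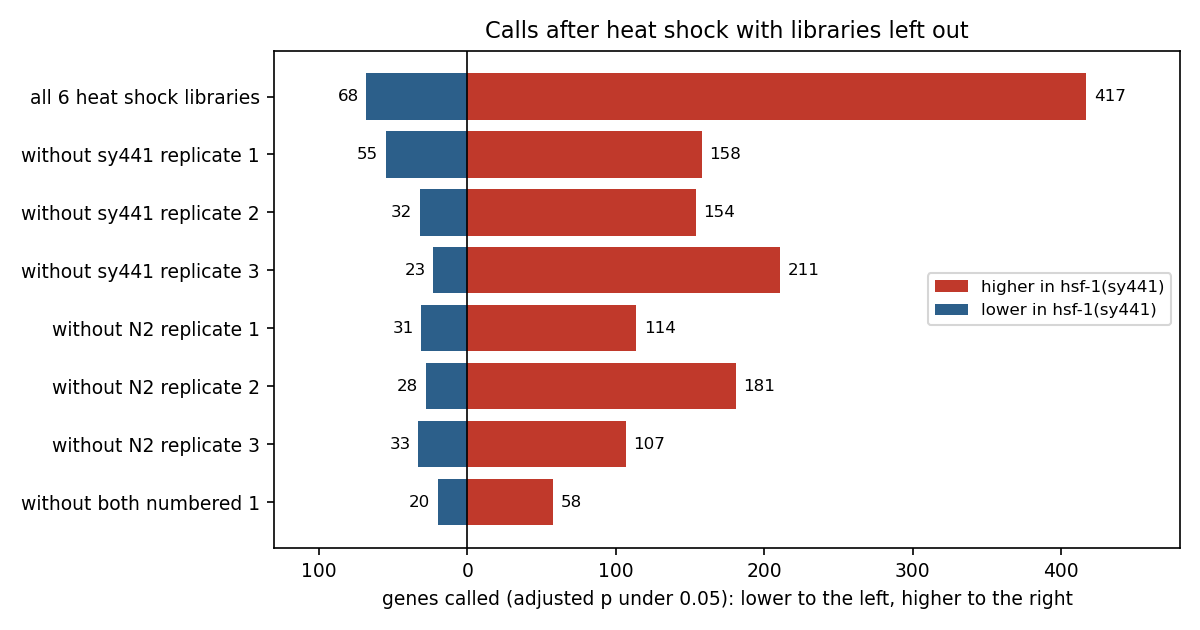
Number of genes called at an adjusted p under 0.05 (horizontal axis, lower in *hsf-1*(*sy441*) to the left and higher to the right) with all 6 heat shock libraries and with the named libraries left out of the fit. The 417 higher and 68 lower calls fell to between 107 and 211 and between 23 and 55 when 1 library was removed, and to 58 and 20 without both libraries numbered 1.

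All 6 genes of the *hsp-16* family, small heat shock proteins that bind unfolding proteins and keep them from aggregating, were below 0 on the log2 scale. The test called 2 of them (33.3%, against 0.379% of all tested genes) lower in the mutant, the divergent neighbours *hsp-16.2* and *hsp-16.41* (chromosome V, 1804334 to 1805875). *hsp-16.2* had 196, 95.9 and 138 CPM in *hsf-1*(*sy441*) heat shock libraries, against 942.5, 506 and 518.5 CPM in N2 heat shock libraries. Every mutant library was below every N2 library, and the gene was 4.57-fold higher in N2 (log2 fold change -2.19 ± 0.40 SE, adjusted p = 0.0125 by edgeR). *hsp-16.41* had 275, 125.8 and 184 CPM in *hsf-1*(*sy441*), against 2407, 604 and 646 CPM in N2 libraries. The N2 library at 2407 CPM stood far above the other N2 libraries, and the log2 fold change was -2.64 ± 0.54 (SE, adjusted p = 0.0217) with it and -1.84 without it.

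The call of *hsp-16.2* was lost without *hsf-1*(*sy441*) replicate 3, at a log2 fold change of -2.17, and that of *hsp-16.41* without mutant replicate 2 or 3, at -2.54 and -2.62. Both genes were far lower at 20 °C in both genotypes. There *hsp-16.2* had 0.904, 2.41 and 2.38 CPM in *hsf-1*(*sy441*) and 4.54, 5.53 and 8.23 CPM in N2, and *hsp-16.41* had 2.25, 1.97 and 3.31 CPM in *hsf-1*(*sy441*) and 3.30, 6.13 and 9.403 CPM in N2. The mutant thus reached levels well above its own 20 °C libraries at both genes, and stayed under the heat-shocked wild type.

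The other *hsp-16* genes lie together as an inverted repeat on chromosome V (9087293 to 9090604) and come in near-identical copies, *hsp-16.1* with *hsp-16.11* and *hsp-16.48* with *hsp-16.49*, between which reads can be split by the counting. *hsp-16.1* had 631, 354 and 508.2 CPM in *hsf-1*(*sy441*), against 1194, 552.5 and 601 CPM in N2. *hsp-16.48* had 924, 372 and 538 CPM in *hsf-1*(*sy441*), against 2803, 571 and 646 CPM in N2. In both genes 1 mutant library lay within the range of the N2 libraries, and the log2 fold changes of the 4 copies, between -0.65 and -1.13, had adjusted p of 0.313 to 0.338. Without N2 replicate 1 the log2 fold change of *hsp-16.48* was -0.16. At 20 °C the 4 copies had positive log2 fold changes, between 0.68 and 1.18, which were not called (adjusted p of 0.227 to 0.25). There *hsp-16.48* had 70.5, 33.4 and 59.1 CPM in *hsf-1*(*sy441*), against 14.5, 19.8 and 37.4 CPM in N2, which overlapped. Their interactions had unadjusted p of 0.0138 to 0.0167 by edgeR and were not called. Summed over all 6 genes, the *hsp-16* level after heat shock was 3608, 1677 and 2412 CPM in *hsf-1*(*sy441*), against 11313, 3373 and 3665 CPM in N2, so that the sums overlapped between the genotypes.

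Small heat shock proteins outside *hsp-16* did not move together: of 10 tested, 1 was higher and none lower, and the median log2 fold change was -0.03. The one called, *hsp-43* (chromosome X), had 175, 83.5 and 122.4 CPM in *hsf-1*(*sy441*), against 40.8, 41.3 and 45.8 CPM in N2. It was 2.98-fold higher in the mutant (adjusted p = 0.00569) and was called whichever single library was left out, but not without both libraries numbered 1 (log2 fold change 1.11, adjusted p = 0.107). *F08H9.4* ran the other way at a low level, with 0.150, 0.0402 and 0.0489 CPM in *hsf-1*(*sy441*) and 0.698, 0.637 and 1.07 CPM in N2. Its groups did not overlap, but the test did not call it (log2 fold change -3.32 ± 0.87 SE, adjusted p = 0.0629).

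**Figure D2:**
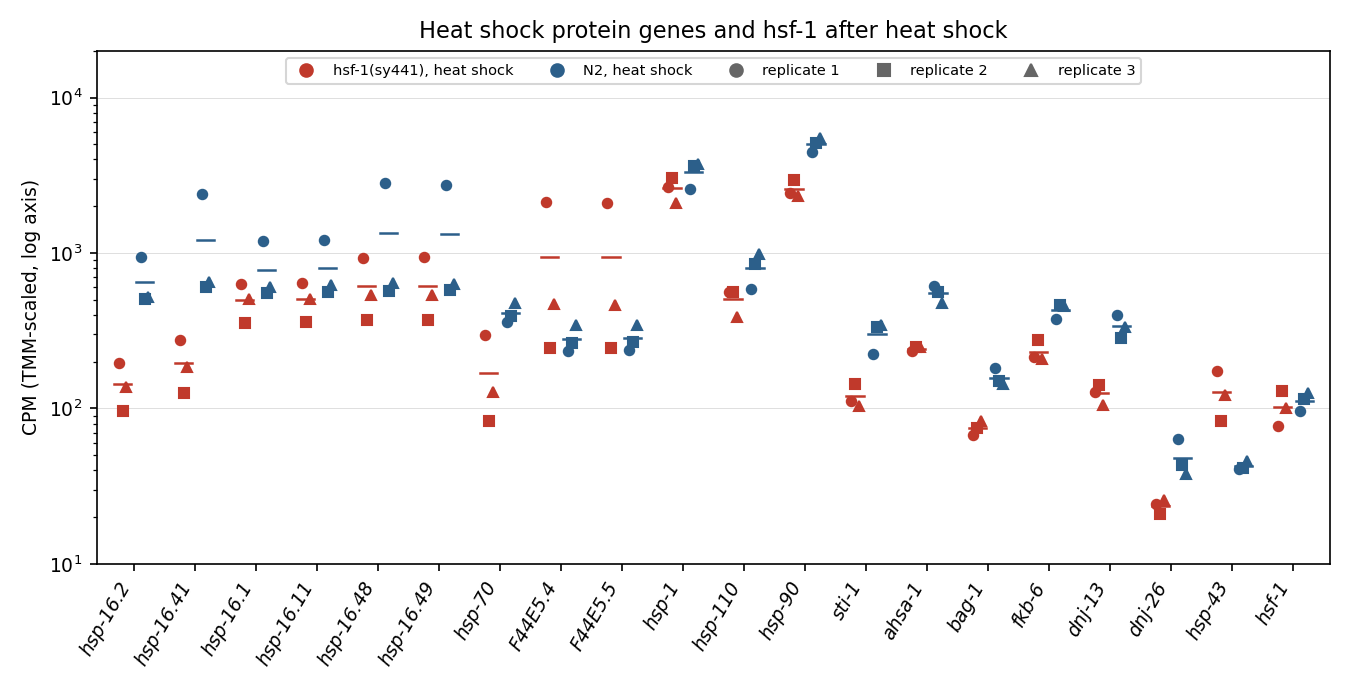
Level of *hsf-1* and of heat shock protein and co-chaperone genes in each heat shock library (TMM-scaled CPM, log axis), with *hsf-1*(*sy441*) left of N2 for each gene, symbols for the replicate number and a short line at the group mean. The mutant libraries lie below the N2 libraries at *hsp-16.2*, *hsp-16.41*, *sti-1*, *ahsa-1*, *bag-1*, *fkb-6*, *dnj-13* and *dnj-26*, and also at *hsp-70*, *hsp-110* and *hsp-90*, which were not called. They lie above the N2 libraries at *hsp-43*. The groups overlap at the other *hsp-16* genes, *F44E5.4*, *F44E5.5*, *hsp-1* and *hsf-1*.

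No member of the HSP70 family, the ATP-driven chaperones that fold new and damaged proteins, was called by edgeR among 10 tested (2 higher and 2 lower at an unadjusted p under 0.05, and 2 higher and 1 lower by DESeq2). The heat-inducible *hsp-70* (chromosome I) had 295, 82.5 and 128 CPM in *hsf-1*(*sy441*), against 362, 392.5 and 478 CPM in N2. All mutant libraries were below all N2 libraries, with a log2 fold change of -1.29 ± 0.40 (SE) and an adjusted p of 0.111. Without *hsf-1*(*sy441*) replicate 1, the highest of the mutant libraries, the log2 fold change was -2.07 and passed the test. The other heat-inducible pair, the near-identical neighbours *F44E5.4* and *F44E5.5* on chromosome II, was highest in that same mutant library. *F44E5.4* had 2127, 244 and 471 CPM in *hsf-1*(*sy441*), against 235.1, 264 and 344 CPM in N2. The groups overlapped, and the log2 fold change of 1.75 ± 0.59 (SE, adjusted p = 0.133) was 0.24 without mutant replicate 1.

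The constitutive *hsp-1* had 2669, 3056 and 2091 CPM in *hsf-1*(*sy441*) and 2584, 3610 and 3749 CPM in N2, which overlapped, with a log2 fold change of -0.35 ± 0.29 (SE). *hsp-110*, a nucleotide exchange factor for HSP70, had 561, 560.5 and 390.1 CPM in *hsf-1*(*sy441*) and 585.5, 845 and 983 CPM in N2. Its groups did not overlap, and its log2 fold change of -0.68 ± 0.30 (SE) was not called (adjusted p = 0.251).

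Among the chaperone lists, that of HSP90 and cofactors held the largest number of genes lower in the mutant. Of its 13 tested members, 4 (30.8%) were lower and none higher, against 0.379% lower over all tested genes, and the median log2 fold change was -0.49. By share the *hsp-16* list was above it, at 33.3%. The 4 were all cofactors, of HSP90 or, for *bag-1*, of HSP70. *ahsa-1*, which stimulates the ATPase of HSP90, had 234, 247 and 247 CPM in *hsf-1*(*sy441*), against 610, 561 and 480 CPM in N2 (log2 fold change -1.18 ± 0.19 SE, adjusted p = 0.00664). *sti-1*, the adaptor that passes clients of HSP70 to HSP90, had 112.3, 144 and 104.1 CPM in *hsf-1*(*sy441*), against 225, 335 and 345 CPM in N2 (-1.33 ± 0.25, adjusted p = 0.0149). In both genes the libraries of the genotypes were well apart.

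*bag-1*, an exchange factor for HSP70, had 67.2, 74.9 and 82.5 CPM in *hsf-1*(*sy441*), against 181, 149 and 143 CPM in N2, and *fkb-6*, an HSP90-binding immunophilin, had 213, 277 and 207 CPM in *hsf-1*(*sy441*), against 374, 464 and 458 CPM in N2. Their log2 fold changes were -1.07 and -0.90, with adjusted p of 0.0371 and 0.0499. *ahsa-1* was called whichever single library was left out, but not without both libraries numbered 1 (adjusted p = 0.0922). The call of *sti-1* was lost without N2 replicate 2 (log2 fold change -1.25), N2 replicate 3 (-1.33) or mutant replicate 1 (-1.38), and those of *bag-1* and *fkb-6* were lost without any one library, at log2 fold changes of -1.24 to -1.1 and -1.19 to -0.81. *hsp-90* itself had 2425, 2941 and 2332 CPM in *hsf-1*(*sy441*), against 4474, 5134 and 5474 CPM in N2. Each mutant library was below each N2 library, but the 1.96-fold higher level in N2 had an adjusted p of 0.082, and the p23 co-chaperone *daf-41* one of 0.076.

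DnaJ proteins, which deliver clients to HSP70, held 2 lower (6.9%, against 0.379% of all tested genes) and no higher genes among 29 tested. *dnj-13*, whose human counterpart is DNAJB1, had 128, 142.3 and 106 CPM in *hsf-1*(*sy441*), against 400.4, 284 and 336 CPM in N2. It was 2.71-fold higher in N2 (log2 fold change -1.44 ± 0.20 SE, adjusted p = 0.00297), was called whichever single library was left out and was called without both libraries numbered 1. *dnj-26* had 24.3, 21.04 and 25.9 CPM in *hsf-1*(*sy441*), against 63.5, 43.4 and 38.04 CPM in N2 (adjusted p = 0.0256), and that call was lost in 5 of the 6 fits with a library left out, with log2 fold changes of -1.27 to -0.93.

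Subunits of the CCT chaperonin, the folding chamber for actin and tubulin, were all below 0 on the log2 scale without any being called: 8 of 8 were negative, with a median of -0.53, and 3 were lower at an unadjusted p under 0.05 and by DESeq2. *cct-5* had 464, 599 and 559 CPM in *hsf-1*(*sy441*) and 837, 1015 and 982 CPM in N2, at an adjusted p of 0.0615. Proteasome subunits showed a smaller displacement of the same kind, with 1 positive and no called gene among 32 and a median of -0.27 (7 lower at an unadjusted p under 0.05, 0 by DESeq2), and *rpn-3* of the regulatory particle had a log2 fold change of -0.56 (adjusted p = 0.165). Against this, 53.3% of all tested genes were above 0. None of 28 genes of the canonical ER unfolded protein response and none of 15 of its mitochondrial counterpart was called by edgeR, with medians of -0.08 and -0.12. At an unadjusted p under 0.05 these lists held 1 lower gene, and 2 higher and 1 lower genes, and DESeq2 called 2 genes higher in the mitochondrial list. Among 157 genes induced by ER stress in earlier work, 6 were higher (3.82%) and 3 lower (1.91%), with a median of -0.12. Over all tested genes these shares were 2.32% and 0.379%.

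**Figure D3:**
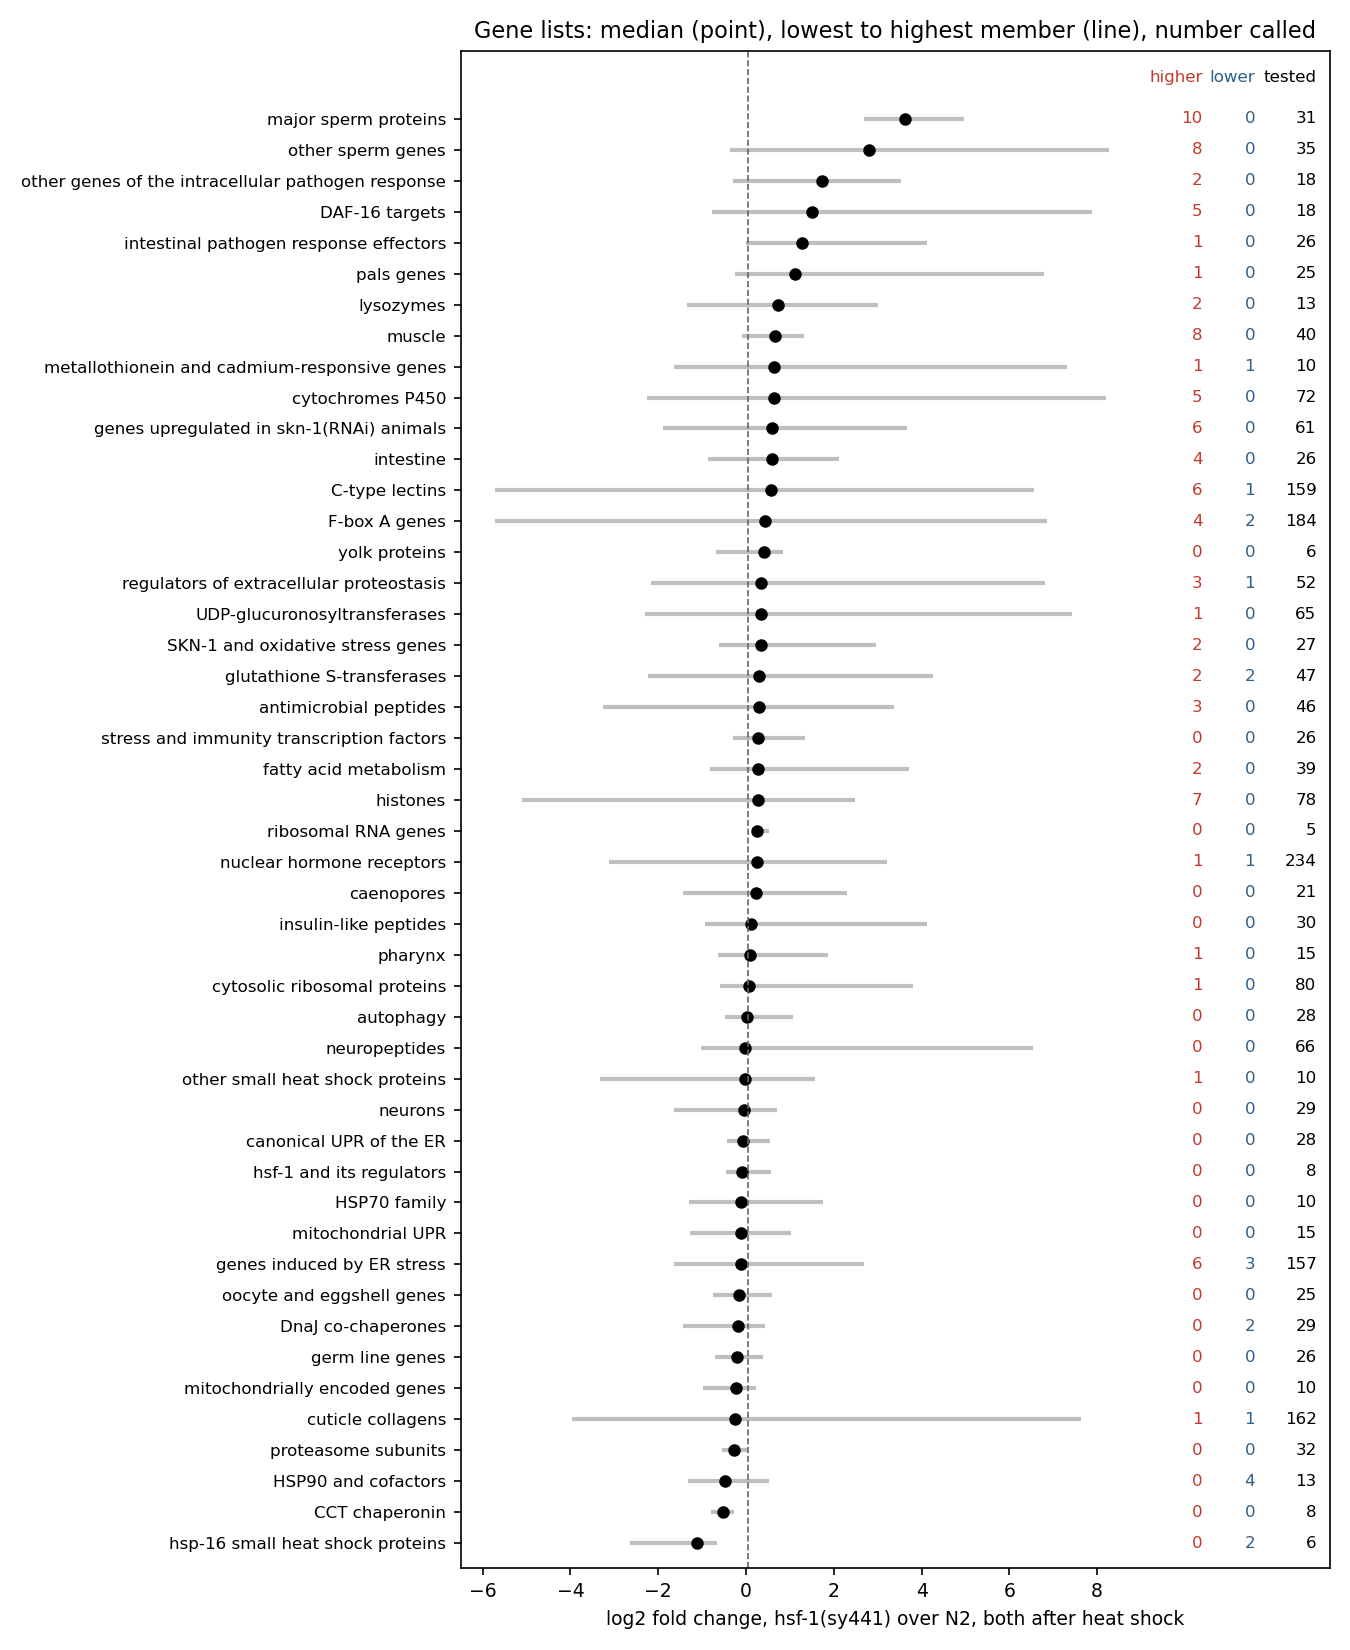
Median (point) and range (line) of the log2 fold change of *hsf-1*(*sy441*) over N2 after heat shock for each gene list, with the numbers called higher, called lower and tested at the right and the median of all tested genes, 0.042, as a dashed line. Sperm genes lie at the high end, with 10 of 31 major sperm protein genes called higher, and the *hsp-16* genes at the low end, with 2 of 6 called lower.

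The largest rises in the mutant were in genes that were nearly silent in heat-shocked N2 animals. *C38D9.2* (chromosome V, 17567150 to 17571742) had 253.5, 381 and 262.6 CPM in *hsf-1*(*sy441*), against 0.229, 0.436 and 0.284 CPM in N2. That is a 942-fold difference (log2 fold change 9.88 ± 0.36 SE), and its adjusted p of 7.44e-09 was the smallest among all genes tested. The non-coding RNA gene next to it, *C38D9.13*, had 18.6, 31.7 and 27.2 CPM in *hsf-1*(*sy441*), against 0, 0.0944 and 0 CPM in N2. On chromosome II the neighbours *F15D4.5* and *F15D4.6* (13245376 to 13250063) behaved in the same way. *F15D4.5* had 158.1, 253 and 183 CPM in *hsf-1*(*sy441*), against 0.710, 1.63 and 0.872 CPM in N2, which is a 185-fold difference, and *F15D4.6* was 45-fold higher.

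A further pair of neighbours occurs as 2 copies of equal span on chromosome V. *W09B7.2* and *W09B7.1* lie at 8828165 to 8831441 and *F07B7.2* and *F07B7.1* at 8870259 to 8873535, both spans being 3277 bases long, so reads of the copies may not have been told apart. *W09B7.2* had 149, 146 and 109 CPM in *hsf-1*(*sy441*), against 3.42, 2.90 and 3.74 CPM in N2. *F07B7.2* had 136, 135.5 and 100.1 CPM in *hsf-1*(*sy441*), against 3.14, 2.57 and 2.49 CPM in N2. Both were over 40-fold higher in the mutant, at 40.1-fold and 45.3-fold, and the partners *W09B7.1* and *F07B7.1* had log2 fold changes of 7.78 ± 0.99 and 7.09 ± 0.91 (SE). *F40D4.13*, also on chromosome V, was 45.6-fold higher. These 9 genes were called higher in every fit with a library left out and also without both libraries numbered 1, and all of them were higher at 20 °C too, with log2 fold changes between 5.12 and 10.398.

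Other large rises came at lower levels. *alg-3*, an Argonaute protein that acts with small RNAs during sperm formation, had 8.34, 3.69 and 2.63 CPM in *hsf-1*(*sy441*), against 0.0481, 0.0472 and 0.0854 CPM in N2 (log2 fold change 6.29 ± 1.02 SE, adjusted p = 0.00672). *C07G1.7* had 32.6, 11.15 and 14.3 CPM in *hsf-1*(*sy441*), against 0.1805, 0.165 and 0 CPM in N2, and its neighbour *C07G1.6* had 4.70, 2.04 and 2.65 CPM in *hsf-1*(*sy441*), against 0, 0.0944 and 0 CPM in N2. For *ZK177.9* the values were 18.6, 6.33 and 8.37 CPM in *hsf-1*(*sy441*), against 0.0361, 0 and 0 CPM in N2.

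The neighbours *mpst-5* and *mpst-6*, which encode mercaptopyruvate sulfurtransferase homologues of equal gene length and near-equal values, had 1.38, 1.79 and 1.33 CPM (*mpst-5*) in *hsf-1*(*sy441*) and no count in any heat-shocked N2 library. Against a floor of 3 counts over the N2 group, *mpst-5* and *mpst-6* were at least 137-fold higher in the mutant. In all, 18 of the genes called higher had no count in heat-shocked N2 animals, and 28 had a mean under 1 CPM in the mutant. *cyp-13A11*, a cytochrome P450 gene with 0.540, 0.348 and 0.453 CPM in *hsf-1*(*sy441*) and none in N2, was at least 40.7-fold higher, and this call was lost without any one library.

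Among more abundant genes with small spread, *scrm-4*, a phospholipid scramblase gene, had 41.6, 54.2 and 53.2 CPM in *hsf-1*(*sy441*), against 5.66, 2.69 and 3.38 CPM in N2. This 12.7-fold difference had an adjusted p of 1.76e-05. *C18D4.6* was 8.0-fold higher and the pseudogene *C06C3.5* 16.3-fold higher in the mutant, and both were called in every fit with a library left out. *asp-8*, a cathepsin-D-like aspartyl protease gene, had 9.41, 13.02 and 17.4 CPM in *hsf-1*(*sy441*), against 1.53, 2.16 and 1.99 CPM in N2, and *osg-1*, a gene of the oxidative stress list, had 26.2, 13.33 and 15.2 CPM in *hsf-1*(*sy441*), against 2.50, 2.50 and 2.03 CPM in N2. The adjusted p were 0.000255 and 0.00458, and both calls held in all 6 fits.

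**Figure D4:**
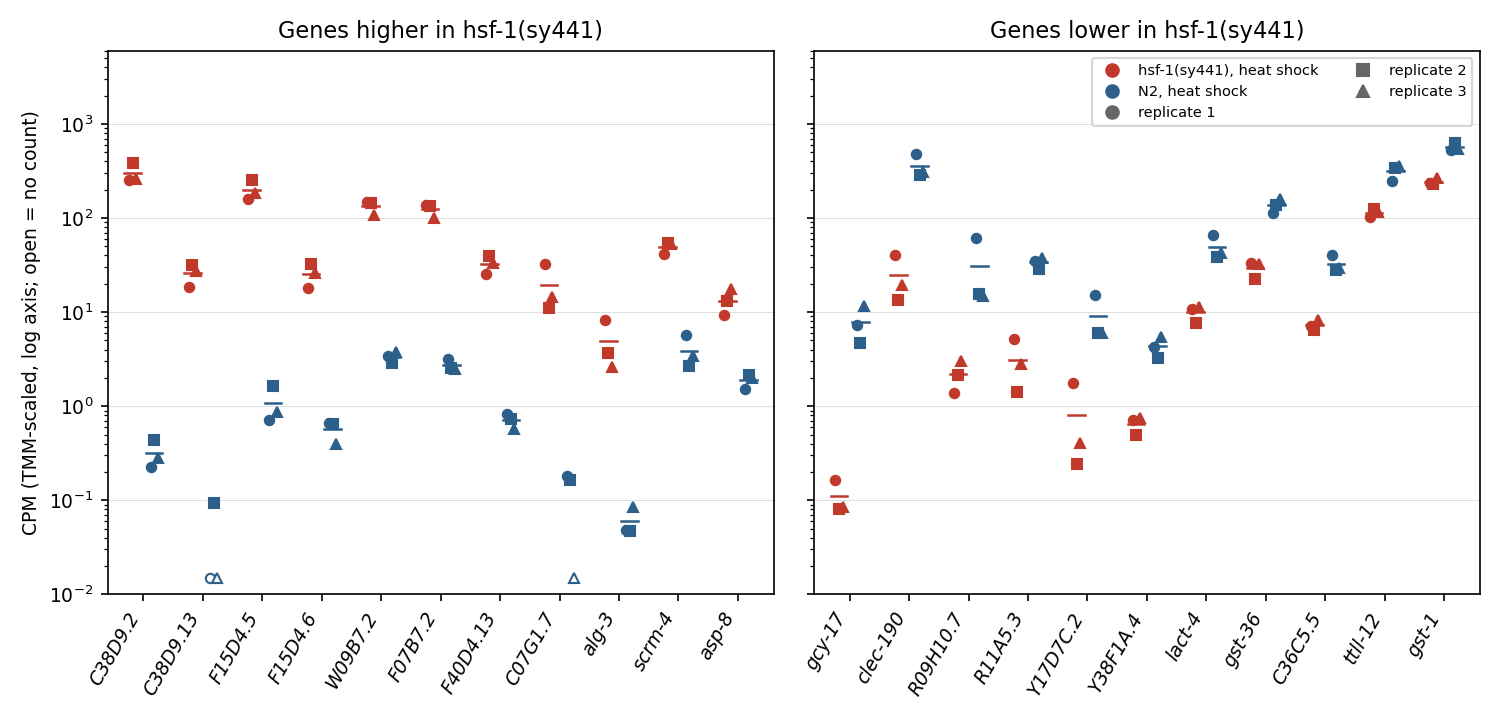
Level of genes called higher (left) and lower (right) in each heat shock library (TMM-scaled CPM, log axis), *hsf-1*(*sy441*) left of N2 for each gene, with a short line at the group mean and open symbols at the bottom for libraries with no count. The genotypes are separated by a factor of 942 at *C38D9.2* and by 2.33 at *gst-1*. No gene shown has overlapping groups, which holds for all 485 called genes and for 29.2% of all tested genes.

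Lists of innate immunity genes held few calls each. In the *pals* family, whose members *pals-22* and *pals-25* control the intracellular pathogen response, 1 of 25 tested genes (4%) was higher, against 2.32% of all tested genes. Of the 25, 22 were above 0 and the median log2 fold change was 1.11. At an unadjusted p under 0.05, 10 of the 25 were higher, against 13.2% of all tested genes, and DESeq2 called 6. The one called by edgeR, *pals-39*, had 3.33, 0.991 and 1.52 CPM in *hsf-1*(*sy441*), against 0.397, 0.0826 and 0.0379 CPM in N2 (adjusted p = 0.0371), and among the fits without 1 library its call held only without N2 replicate 1, with log2 fold changes of 2.79 to 4.84 over the 6 fits. Of 18 other genes of that response, edgeR called 2 higher, against 2.32% of all tested genes, with a median log2 fold change of 1.73. Before adjustment, 8 of the 18 were higher with p below 0.05, against 13.2% of all tested genes, and DESeq2 called 5. *skr-5*, a Skp1-related ubiquitin ligase subunit, had 5.79, 1.78 and 1.59 CPM in *hsf-1*(*sy441*), against 0.349, 0.330 and 0.114 CPM in N2 (log2 fold change 3.53 ± 0.76 SE, adjusted p = 0.0278). That call was kept without mutant replicate 2 or 3 and lost without any of the other 4 libraries, with log2 fold changes of 2.59 to 3.85 over the 6 fits.

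Lysozymes, secreted enzymes that digest bacterial cell walls, held 2 higher genes among 13 tested (15.4%, against 2.32% of all tested genes). *lys-7* had 266, 140.5 and 177.5 CPM in *hsf-1*(*sy441*), against 54.8, 46.95 and 79.8 CPM in N2 (3.22-fold higher, adjusted p = 0.03). *lys-8* had 262.5, 156 and 171 CPM in *hsf-1*(*sy441*), against 61.4, 73.9 and 102 CPM in N2 (2.48-fold higher, adjusted p = 0.0464). In both genes the 3 mutant libraries lay above the 3 N2 libraries, but both calls were lost without any one library, with log2 fold changes of 1.29 to 1.83 for *lys-7* and 0.94 to 1.42 for *lys-8*. *lys-1* and *lys-2* did not pass, at adjusted p of 0.128 and 0.389.

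C-type lectins, a large family of sugar-binding secreted proteins induced by many pathogens, had 6 higher genes and 1 lower gene among 159 tested, or 3.77% and 0.629%, against 2.32% and 0.379% over all tested genes. *clec-52* had 5.01, 5.80 and 5.81 CPM in *hsf-1*(*sy441*), against 1.08, 1.23 and 0.996 CPM in N2, and was called in every fit with a library left out (log2 fold change 2.33 ± 0.33 SE, adjusted p = 0.00274). *clec-221* had 30.9, 10.72 and 11.9 CPM in *hsf-1*(*sy441*), against 2.44, 2.11 and 3.02 CPM in N2 and was 7.07-fold higher. At 20 °C the same gene had 1.15, 0.520 and 0.476 CPM in *hsf-1*(*sy441*) and 0.198, 0.238 and 0.419 CPM in N2, so that it was far lower there in both genotypes.

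The lectin that was lower, *clec-190* (chromosome IV), had 40.9, 13.5 and 19.5 CPM in *hsf-1*(*sy441*), against 480.5, 285 and 311 CPM in N2. It was 14.6-fold higher in N2 (log2 fold change -3.87 ± 0.58 SE, adjusted p = 0.00458) and was called in every fit with a library left out and without both libraries numbered 1. Of 46 antimicrobial peptide genes, 10 were higher and 1 lower at an unadjusted p under 0.05, and DESeq2 called 8 higher. By edgeR 3 were higher (6.52%, against 2.32% of all tested genes), all of them fungus-induced protein related genes that lie together on chromosome I (14153228 to 14158078). *fipr-22* had 13.9, 5.66 and 7.51 CPM in *hsf-1*(*sy441*), against 1.28, 1.32 and 1.45 CPM in N2 (6.68-fold higher, adjusted p = 0.00494). The neighbouring *fipr-23* and *fipr-24* were 7.55-fold and 3.66-fold higher, with calls kept in 2 and 1 of the 6 fits.

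All 26 tested intestinal pathogen response effectors were above 0, with a median log2 fold change of 1.27, and 1 passed the test. This was *dod-19*, a gene downstream of DAF-16, with 259, 180.3 and 182.2 CPM in *hsf-1*(*sy441*), against 48.11, 71 and 81.4 CPM in N2 (adjusted p = 0.0322, call lost without any one library, log2 fold change 1.29 to 1.73). *dct-17*, a CUB-like domain gene outside that list, had 31.3, 22.3 and 30.3 CPM in *hsf-1*(*sy441*), against 4.89, 7.15 and 6.61 CPM in N2. It was 4.5-fold higher (adjusted p = 0.00849) and was called in every fit with a library left out. Among 184 F-box A genes, substrate adaptors of ubiquitin ligases, 4 (2.17%) were higher and 2 (1.09%) lower, a share of higher genes below that over all tested genes. *fbxa-170*, one of the lower, had 8.81, 13.1 and 11.3 CPM in *hsf-1*(*sy441*), against 24.04, 27.9 and 29.6 CPM in N2 (adjusted p = 0.0104).

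Of 18 tested targets of DAF-16, the FOXO factor of insulin signalling, 5 were higher and none lower, against 2.32% of all tested genes, with a median log2 fold change of 1.5. Besides *lys-7* and *asp-8* these were *gst-10*, *scl-20* and *fat-5*. *fat-5*, a palmitoyl-CoA desaturase gene, had 201, 18.2 and 35.1 CPM in *hsf-1*(*sy441*), against 5.53, 5.66 and 8.07 CPM in N2. The first mutant library stood far above the others, and the log2 fold change of 3.72 ± 0.78 (SE, adjusted p = 0.0246) was 1.94 and not called without it. The call was also lost without any one of the N2 libraries. *scl-20*, a gene for a secreted SCP-domain protein, had 0.165, 0.482 and 0.428 CPM in *hsf-1*(*sy441*) and no count in N2, which makes it at least 32.7-fold higher. The calls of *gst-10* and *scl-20* were each kept in 1 of the 6 fits with a library left out, with log2 fold changes of 0.81 to 1.43 for *gst-10*. *sod-3*, the mitochondrial superoxide dismutase often used as a DAF-16 reporter, had 2.21, 3.08 and 3.83 CPM in *hsf-1*(*sy441*) and 0.722, 1.12 and 1.25 CPM in N2. Its groups did not overlap, and its adjusted p was 0.095.

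Among 27 genes of SKN-1 and oxidative stress, 2 (7.41%, against 2.32% of all tested genes) were higher, *osg-1* and *gst-10*. The genes that rise in *skn-1*(*RNAi*) animals in earlier work had 6 higher (9.84%) and no lower genes among 61 tested, with *scrm-4* and *skr-5* among them. Of the 32 genes that the study singles out, 11 were higher and 1, *hsp-16.2*, was lower, but these were chosen on libraries of this series and are not independent evidence of a direction.

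Enzymes of detoxification moved in both directions. Of 47 glutathione S-transferases 2 were higher and 2 lower (4.26% each, against 2.32% and 0.379% of all tested genes). *gst-24* had 46.5, 17.9 and 23.1 CPM in *hsf-1*(*sy441*), against 5.37, 5.08 and 5.21 CPM in N2 (5.58-fold higher, adjusted p = 0.00711), while *gst-1* had 237, 230.0 and 264 CPM in *hsf-1*(*sy441*), against 535, 624 and 541 CPM in N2 (2.33-fold higher in N2, adjusted p = 0.00398). *gst-36* (chromosome X) had 32.9, 22.5 and 32.3 CPM in *hsf-1*(*sy441*), against 114, 139 and 160 CPM in N2 (log2 fold change -2.23 ± 0.21 SE, adjusted p = 0.000105). All 3 genes were called whichever library was left out.

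Cytochromes P450, oxidases of xenobiotics and lipids, had 5 higher (6.94%, against 2.32% of all tested genes) and no lower genes among 72. *cyp-33C8* had 26.8, 18.6 and 22.8 CPM in *hsf-1*(*sy441*), against 4.69, 3.81 and 4.84 CPM in N2 (5.10-fold higher, adjusted p = 0.000648, called in all 6 fits with a library left out). *cyp-13A5* and *cyp-33C4* were 2.95-fold and 3.24-fold higher, with calls kept in 2 fits and in 0. One of 65 UDP-glucuronosyltransferases (1.54%), *ugt-41*, was higher. The cadmium-responsive genes *cdr-2* and *cdr-4* went opposite ways: *cdr-2* had 31.4, 21.7 and 35.2 CPM in *hsf-1*(*sy441*), against at most 12.12 CPM in N2 libraries, and *cdr-4* had 79.0, 72.8 and 79.7 CPM in *hsf-1*(*sy441*), against 262, 226 and 228 CPM in N2. Their adjusted p were 0.011 and 0.0317. The call of *cdr-4* was lost without any one library, with log2 fold changes of -1.76 to -1.65.

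Major sperm proteins form the cytoskeleton of the crawling nematode sperm cell and signal to the oocyte, and in a hermaphrodite sperm are made before adulthood. Of 31 tested major sperm protein genes 10 (32.3%, against 2.32% of all tested genes) were higher, and all 31 were above 0, with a median log2 fold change of 3.61. Their summed level was 191, 259 and 114 CPM in *hsf-1*(*sy441*), against 7.99, 34.1 and 7.22 CPM in N2, so that the sums did not overlap. Members are highly alike in sequence and share reads, so their values are not independent of each other. *msp-40* had 10.6, 11.11 and 5.35 CPM in *hsf-1*(*sy441*), against 0.289, 1.14 and 0.569 CPM in N2 (13.5-fold higher, adjusted p = 0.0115), and *msp-31* had 13.31, 15.2 and 8.86 CPM in *hsf-1*(*sy441*), against 2.46, 2.58 and 0.806 CPM in N2.

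Other sperm genes had 8 higher (22.9%, against 2.32% of all tested genes) and no lower genes among 35 tested. *ssp-9*, of a sperm-specific family, had 5.48, 7.23 and 3.25 CPM in *hsf-1*(*sy441*), against 0.229, 0.731 and 0.455 CPM in N2 (log2 fold change 3.49 ± 0.60 SE, adjusted p = 0.00949). None of the major sperm protein genes and none of the other sperm genes was called without both libraries numbered 1, and *msp-40* and *ssp-9* lost their calls without N2 replicate 3, at log2 fold changes of 3.53 and 3.35. Without N2 replicate 3 no gene of either list was called, and without N2 replicate 2 there were 13 and 9. Oocyte and eggshell genes had 0 of 25 called and a median of -0.15, and germ line genes 0 of 26 called and a median of -0.21, while DESeq2 called 1 and 2 of them lower and 1 and 2 were lower at an unadjusted p under 0.05. In whole animals, more cells of a type and more RNA per cell cannot be told apart.

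Of 40 tested genes of body wall muscle, 8 (20%, against 2.32% of all tested genes) were higher, none was lower and 37 were above 0, and the median log2 fold change was 0.66. The sum over the group was 11515, 11290 and 11172 CPM in *hsf-1*(*sy441*), against 5264, 7804 and 7932 CPM in N2, with a gap between the genotypes that exceeded the spread within either. *act-4*, a muscle actin, had 1174, 948 and 1057 CPM in *hsf-1*(*sy441*), against 398, 528 and 555 CPM in N2 (log2 fold change 1.1 ± 0.21 SE, adjusted p = 0.0162). *cpn-3*, a calponin, had 303, 310.1 and 316 CPM in *hsf-1*(*sy441*), against 85.1, 150 and 146 CPM in N2, and *mup-2*, troponin T, had 294, 351.5 and 304.5 CPM in *hsf-1*(*sy441*), against 85.6, 157 and 134 CPM in N2. *mlc-3*, a myosin light chain, and *dim-1*, a protein of the muscle attachment sites, were 1.82-fold and 1.84-fold higher. The calls of *act-4*, *cpn-3* and *mup-2* were kept in 1, 2 and 2 of the 6 fits with a library left out, no muscle gene was called without *hsf-1*(*sy441*) replicate 1 or 2 or without N2 replicate 1 or 3, and none was called without both libraries numbered 1. At 20 °C, 16 of the 40 muscle genes were called higher, with a median of 0.83, where 6.24% of all tested genes were higher.

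Intestinal genes had 4 higher (15.4%, against 2.32% of all tested genes) and no lower members among 26 tested, and 3 of the 4 were intermediate filament proteins of the terminal web under the brush border. *ifd-2* had 47.1, 44.6 and 43.7 CPM in *hsf-1*(*sy441*), against 11.82, 16.98 and 18.9 CPM in N2 (log2 fold change 1.51 ± 0.23 SE, adjusted p = 0.00458, called in all 6 fits with a library left out). *ifc-2* was 3.26-fold and *ifb-2* 2.05-fold higher, and *eps-8*, which caps actin in microvilli, was 2.02-fold higher. The calls of *ifc-2*, *ifb-2* and *eps-8* were kept in 3, 2 and 0 of the 6 fits with a library left out. No intestinal gene was called without both libraries numbered 1. The summed level of the intestinal list was 5580, 4026 and 3816 CPM in *hsf-1*(*sy441*), against 2336, 2889 and 3129 CPM in N2. The intestinal identity factor *elt-2* had 3.96 to 8.098 CPM in *hsf-1*(*sy441*) and 1.86 to 4.53 CPM in N2, which overlapped (adjusted p = 0.231). Many of the immune, detoxification and DAF-16 target genes above are expressed in the intestine. Whether the higher intestinal sums have a part in the differences of those genes was not tested. At 20 °C, 7 of the 26 intestinal genes were called higher, with a median of 0.68, where 6.24% of all tested genes were higher.

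Neuronal, pharyngeal and yolk protein genes gave no such pattern, and their summed levels overlapped between the genotypes. None of 29 neuronal genes was called by edgeR or DESeq2, with a median of -0.05 and 2 higher at an unadjusted p under 0.05, and 1 of 15 pharyngeal genes was higher, with a median of 0.09. None of the 6 yolk protein genes was called by either tool, and 1 was lower at an unadjusted p under 0.05. Collagens of the cuticle had 1 higher and 1 lower gene among 162 (0.617% each, against 2.32% and 0.379% of all tested genes). Before adjustment, edgeR gave p below 0.05 to 27 higher and 29 lower collagens, against 13.2% and 5.64% of all tested genes. DESeq2 called 6 and 7. The summed collagen level was 8808, 11130 and 11161 CPM in *hsf-1*(*sy441*), against 5380, 7137 and 8247 CPM in N2, without overlap. Of the called collagens, *col-122* had 863, 921.5 and 1005 CPM in *hsf-1*(*sy441*), against 474, 457.5 and 658.5 CPM in N2. The lower one, *col-135*, had 22.1, 26.3 and 23.4 CPM in *hsf-1*(*sy441*), against 58.8, 70.4 and 85.04 CPM in N2. Both calls were lost without any one library, with log2 fold changes of 0.59 to 0.90 for *col-122* and -1.85 to -1.54 for *col-135*. Of 78 histone genes 7 (8.97%, against 2.32% of all tested genes) were higher, among them the cluster of *his-11*, *his-12*, *his-13* and *his-15* on chromosome II, whose near-identical copies share reads. In the order given, the calls of this cluster were kept in 1, 1, 0 and 1 of the 6 fits with a library left out. No histone gene was called without both libraries numbered 1. Histone messages are mostly not polyadenylated, and these libraries were enriched for poly(A). *his-11* had 2.84 to 3.33 CPM in *hsf-1*(*sy441*) and 0.517 to 1.22 CPM in N2. *rpl-11.2* was the only one of 80 cytosolic ribosomal protein genes called (1.77-fold higher, adjusted p = 0.0206).

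Regulatory genes contributed few calls. Of 234 nuclear hormone receptors 1 was higher and 1 was lower (0.427% each, against 2.32% and 0.379% of all tested genes). The lower one, *nhr-17*, had 13.4, 11.07 and 12.7 CPM in *hsf-1*(*sy441*), against 26.4, 20.3 and 29.8 CPM in N2 (adjusted p = 0.0204, call kept in 2 of the 6 fits). None of 26 transcription factors of stress and immunity was called by edgeR, where 5 were higher at an unadjusted p under 0.05 and DESeq2 called 1. Of 39 genes of fatty acid metabolism 2 (5.13%) were higher, *fat-5* and the lysosomal lipase gene *lipl-4*, which was 4.89-fold higher in the mutant (adjusted p = 0.0487, call lost without any one library). Among 52 regulators of extracellular proteostasis, 3 (5.77%) were higher, *clec-1* being one of them, and 1 (1.92%) was lower, *C36C5.5*.

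The genes lower in the mutant were fewer, and several of the most marked were silent or low without heat shock. *gcy-17*, a receptor guanylyl cyclase (chromosome I), had 0.165, 0.0803 and 0.0856 CPM in *hsf-1*(*sy441*), against 7.30, 4.75 and 11.7 CPM in N2. It was 71.6-fold higher in N2 (log2 fold change -6.16 ± 0.85 SE, adjusted p = 0.00241) and was called in every fit with a library left out. At 20 °C it had 0.0844, 0 and 0.143 CPM in *hsf-1*(*sy441*) and 0.119, 0.308 and 0.0792 CPM in N2, so that no unshocked library was above 0.308 CPM. *sre-48*, a chemoreceptor gene, had counts in the 3 heat-shocked N2 libraries alone, at 2.38, 0.389 and 1.128 CPM, and was at least 96.7-fold higher in N2 than in *hsf-1*(*sy441*). That call was kept in 1 of the 6 fits with a library left out, and DESeq2 did not make it (adjusted p = 0.19).

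*R09H10.7* had 1.38, 2.17 and 3.05 CPM in *hsf-1*(*sy441*), against 61.4, 15.5 and 14.9 CPM in N2, and *R11A5.3* had 5.16, 1.41 and 2.80 CPM in *hsf-1*(*sy441*), against 35.1, 28.6 and 37.7 CPM in N2. At 20 °C *R09H10.7* had 0.989 to 3.38 CPM in *hsf-1*(*sy441*) and 1.53 to 4.43 CPM in N2, and *R11A5.3* had 0.847 to 2.70 CPM in *hsf-1*(*sy441*) and 1.86 to 3.71 CPM in N2. *Y38F1A.4* and *lact-4*, a gene for a beta-lactamase-like protein, showed the same layout. *lact-4* had 10.9, 7.64 and 11.3 CPM in *hsf-1*(*sy441*), against 66.7, 38.5 and 42.2 CPM in N2, while at 20 °C it had 21.4, 11.5 and 13.28 CPM in *hsf-1*(*sy441*) and 10.1, 13.6 and 23.1 CPM in N2. These 4 genes were called lower in every fit with a library left out, with adjusted p between 0.00494 and 0.0121. *R09H10.7* was highest in N2 replicate 1, and without both libraries numbered 1 the calls of *R09H10.7* (log2 fold change -2.67, adjusted p = 0.104) and *Y38F1A.4* (-2.91, adjusted p = 0.0618) were lost, against -3.80 and -2.72 with all libraries.

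*Y94H6A.10* was among the most abundant of the lower genes, with 270.2, 130.2 and 189 CPM in *hsf-1*(*sy441*), against 843, 598 and 639.5 CPM in N2, and its call was kept in 1 of the 6 fits. *ttll-12*, a tubulin tyrosine ligase-like gene, had 101, 125 and 117 CPM in *hsf-1*(*sy441*), against 245, 338 and 359 CPM in N2 (adjusted p = 0.00241). *dhs-12*, a short-chain dehydrogenase gene, had 47.03, 45.7 and 55.3 CPM in *hsf-1*(*sy441*), against 118, 121.6 and 101.5 CPM in N2 (adjusted p = 0.00377). *ttll-12* and *dhs-12* were called whichever library was left out. A second set was low in the mutant at both temperatures: *C36C5.5* had 7.08, 6.53 and 8.18 CPM in *hsf-1*(*sy441*), against 40.6, 27.9 and 29.4 CPM in N2 after heat shock, and 4.69, 8.04 and 8.14 CPM in *hsf-1*(*sy441*), against 23.8, 27.3 and 45.5 CPM in N2 at 20 °C.

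Counted over all genes, the higher and the lower calls differed in how much of them was present without heat shock. Of the 417 genes higher after heat shock, 332 were also higher at 20 °C in the comparison of the unshocked libraries, which shares no library with the heat shock comparison. That is 79.6% of the 417 and 29.6% of the 1120 genes higher at 20 °C, where 6.24% of all tested genes were higher. Of the 68 lower genes, 25 were also lower at 20 °C, which is 36.8% of the 68 and 23.6% of the 106 genes lower at 20 °C, where 0.591% of all tested genes were lower. The log2 fold change at 20 °C was positive in 416 of the 417 and negative in 56 of the 68. The higher genes had a median of 2.03 after heat shock and 1.84 at 20 °C, and the lower genes one of -1.55 after heat shock and -0.70 at 20 °C.

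All 6 mutant libraries, heat shocked or not, were above all 6 N2 libraries in 354 of the 417 higher genes (84.9%), a layout found in 8.34% of all tested genes, and all 6 were below in 34 of the 68 lower genes (50%), found in 3.33% of all. The 3 heat-shocked N2 libraries were above each of the other 9 libraries in 39 of the 68 lower genes (57.4%), against 0.958% of all tested genes. The 3 heat-shocked mutant libraries were above each of the other 9 in 65 of the 417 higher genes (15.6%), against 2.07% of all. Since the calls were made on the heat shock libraries, part of each layout was set by the call, and these shares are a description.

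**Figure D5:**
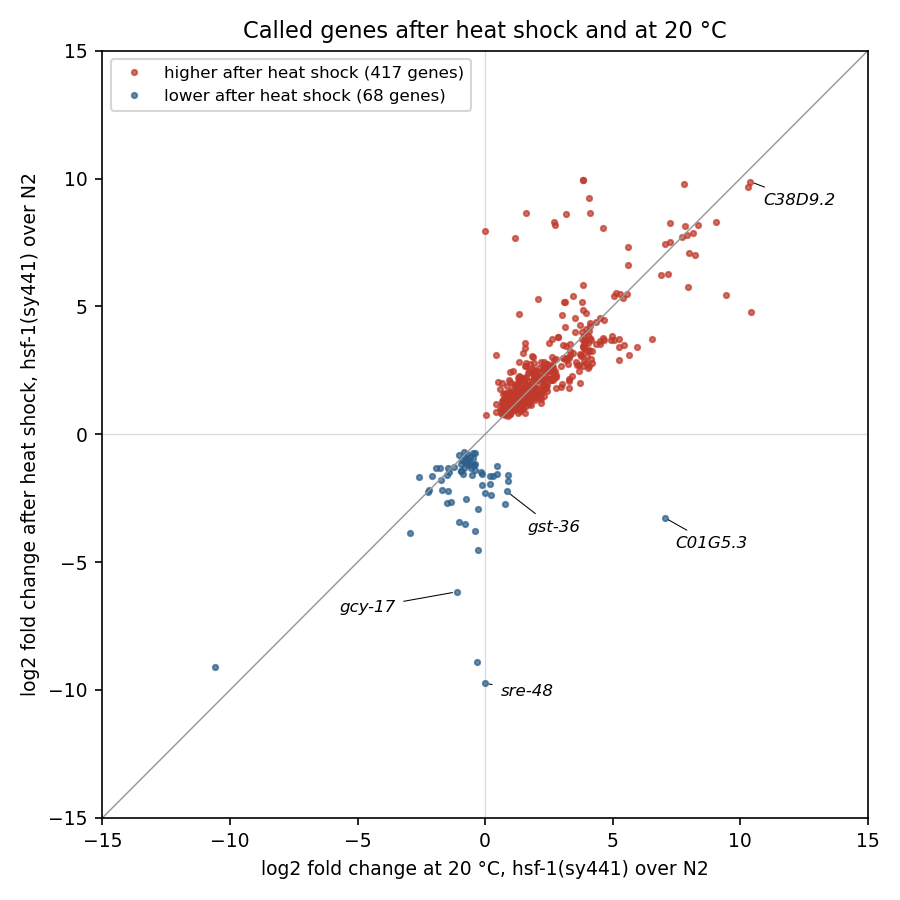
Log2 fold change of *hsf-1*(*sy441*) over N2 after heat shock (vertical axis) against that at 20 °C (horizontal axis) for the 417 genes called higher and the 68 called lower after heat shock, with the line of equality. Higher genes spread about the line, with medians of 2.03 after heat shock and 1.84 at 20 °C, while the lower genes have medians of -1.55 and -0.70. *sre-48*, which had no count at 20 °C, is drawn at 0 there, and *gst-36* and *C01G5.3* have opposite signs.

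The difference between the 2 genotype effects was itself tested as an interaction. It was called in 2 of 17946 genes, 0.0111%, both of them with a more negative effect after heat shock, and 455 genes had an unadjusted p under 0.05. DESeq2 called 4 positive and 29 negative interactions. *gst-36* was the first: its effect was -2.23 after heat shock and 0.85 at 20 °C, and the interaction was -3.08 on the log2 scale (adjusted p = 0.00124). In the unshocked libraries it had 28.9, 23.7 and 28.4 CPM in *hsf-1*(*sy441*) and 14.4, 15.8 and 14.8 CPM in N2. Beside the values after heat shock given above, the mutant was thus at 22.5 to 32.9 CPM in all 6 of its libraries, while the N2 libraries were at 114 to 160 CPM after heat shock and at 14.4 to 15.8 CPM at 20 °C.

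*C01G5.3* was the other, with 0.105, 0.254 and 0.0979 CPM in *hsf-1*(*sy441*), against 1.90, 1.31 and 1.22 CPM in N2 after heat shock, and 0.145, 0.230 and 0.226 CPM in *hsf-1*(*sy441*) and no count in N2 at 20 °C. Its interaction of -10.31 (adjusted p = 0.0391) has no fixed size, because 1 of the 4 groups had no count. This interaction was called in 3 of the 12 fits with a library left out and not with a replicate block (adjusted p = 0.181), while that of *gst-36* was called in all 12 and with the block. The heat shock call of *C01G5.3* itself was kept in 1 of 6 fits with a heat shock library left out, and was lost without both libraries numbered 1 (adjusted p = 0.276). Both genes were called lower after heat shock and higher at 20 °C. The interactions of *gcy-17* (-5.04, adjusted p = 0.513), *lact-4* (-2.29, adjusted p = 0.513) and *ttll-12* (-1.28, adjusted p = 0.513) did not pass the test, although their effects were called after heat shock and not at 20 °C. Unadjusted p under 0.05 for the interaction were found in 27 of the 68 lower and 34 of the 417 higher genes, against 2.54% of all tested genes.

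Called genes were found on every nuclear chromosome. The share of tested genes that were higher was between 1.26% on chromosome III and 3.05% on chromosome X, and the share that were lower between 0.156% on chromosome X and 0.567% on chromosome IV. Of the higher genes 383 were protein coding, 27 were pseudogenes, 5 were non-coding RNA genes and 2 were lincRNA genes. Next to each other in the order of tested genes lay 102 of the called genes, in 46 runs with the same direction, 6 of which were lower. Besides the pairs named above, the runs included *his-13*, *his-12* and *his-11* (chromosome II, 13820210 to 13822177), the *hsp-16.2* and *hsp-16.41* pair, and *ahsa-1* with *C01G10.7* (chromosome V, 15084059 to 15086918). Neighbouring or overlapping genes can share reads, since the strand setting of the counting is not given.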

How the data were processed

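Raw read counts per gene for 46934 genes were deposited as a single table with a column for each library; the authors checked paired-end reads of poly(A)-enriched RNA with FastQC, mapped them with HISAT2 and counted them with HTSeq on WBcel235, and the strand setting and how reads with several mapping places were treated are not given in the sources used here. Groups were taken from the titles of the samples, with K standing for the unshocked control. No value column was left unmapped (0). Coordinates come from an annotation of the same build, in which 46924 of the genes were found, and 36 genes kept their identifier as a name.

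In R 4.3.3, genes were filtered with filterByExpr on the 4 groups, scaled by TMM and tested with the robust quasi-likelihood test of edgeR 4.0.16 in a single fit of all 12 libraries with 1 mean per group. P-values were adjusted by Benjamini-Hochberg over 17946 genes. No set test was run: each of 48 gene lists is described by its calls and median. The members and lists were chosen with earlier results of these data known. The genes named in the text were drawn from the genes the study names, *hsf-1* and the heat shock families, the 15 largest rises and falls with groups that do not overlap and 1 CPM or more in the higher of them, the 10 smallest adjusted p and the 5 most abundant calls in each direction, up to 4 calls per list (2 by unadjusted p where there were none) and the 10 strongest interactions. Further genes (*C01G10.7*, *elt-2*) were named after their values were seen. Where a group had no count, the fold was computed against 3 counts over that group. Alternatives were DESeq2 1.42.0, RLE scaling, no filter, no robust estimation, the heat shock libraries alone, a replicate block, another quasi-likelihood form, a fold threshold and libraries left out.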

Additional observations from a re-analysis of the deposited data

Results flagged for a closer look

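The effect of the genotype differed between heat-shocked and unshocked animals in 2 genes by a test of the difference itself. *gst-36*, a glutathione S-transferase gene, had an interaction of -3.08 on the log2 scale (adjusted p = 0.00124 by edgeR), with an effect of -2.23 after heat shock and 0.85 at 20 °C. *C01G5.3* had an interaction of -10.31 (adjusted p = 0.0391), with effects of -3.26 and 7.04, where the size is not fixed because N2 animals at 20 °C had no count. With a library left out, the interaction of *gst-36* was called in 12 of 12 fits and that of *C01G5.3* in 3. *C01G5.3* was not called with a replicate block (adjusted p = 0.181), and its heat shock effect was lost in 5 of the 6 fits without a heat shock library.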

How the results depend on the processing

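Calls after heat shock kept within 1.5 times of 417 higher and 68 lower under RLE scaling (421 and 69), without a filter (422 and 53), without robust estimation (416 and 67), with the 6 heat shock libraries alone (549 and 98) and with a log2 fold change of at least 1 (386 and 58). DESeq2 gave 1214 and 303, among them 415 of the 417 and 67 of the 68, and the other quasi-likelihood form 851 and 131. Without a single library the counts were 107 to 211 and 23 to 55, and without both libraries numbered 1 they were 58 and 20. The interaction had 4 positive and 29 negative calls by DESeq2, and 1 to 4 negative calls without a single library. At 20 °C, DESeq2 gave 1940 higher and 615 lower genes, no filter gave 60 lower, and leaving out a library gave 235 to 1156 higher and 45 to 217 lower. For the genes named in the text, 1277 alternative values kept their direction and side of the threshold, 295 lost the call and 18 gained it, and none changed sign.

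Replicates with the same number deviated from their group means with correlations of 0.225, 0.253 and -0.0124, and *hsf-1*(*sy441*) replicate 3 correlated best with N2 replicate 1 (0.11). One pair being under 0.1, the numbers were not taken as pairs, and whether they mark shared days is not stated. In a fit with a replicate block, 459 genes were higher and 73 lower after heat shock, and the interaction had 1 negative call. Promoter motifs were not analysed here. The fold is a bound for the 18 higher genes without a count in N2.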
